A study of Macaca mulatta with 23 samples.

Results

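Survival and death genes of the BCL2 family were followed in CD8+ effector memory T cells (TEM) of rhesus macaques. The members were BCL2, BCL2L1, MCL1, BCL2A1, BCL2L11, BAX, BAK1, BID, BAD and PMAIP1. They were taken by gene symbol, with every probe of each, and made up 10 of the 20046 genes and 24 of the 47230 probes on the array. The study gave the animals either an antibody against the cytokine interleukin-15 (Anti-IL15 Ab) or a control antibody (IgG1 Control Ab), and CD8+ TEM were sorted from blood mononuclear cells at a time before treatment and a time after it. Total RNA of each sort was measured on 1 Illumina bead array. The control arm held 6 animals with an array at both times. The anti-IL-15 arm held 6 animals after treatment and 5 before, since animal 3 had only the later array. Both arms received an antibody, so the control arm shows the change between the same labelled times without an antibody to IL-15. Ages, doses and the interval between the times are not given in the sources used here, and animals are numbered within each arm.

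Proteins of the BCL2 family decide whether the outer mitochondrial membrane is breached, the step that commits a cell to the mitochondrial pathway of apoptosis. BCL2, BCL2L1 (whose long form is BCL-XL), MCL1 and BCL2A1 hold the membrane intact, BAX and BAK1 form the pores that breach it, and BCL2L11 (BIM), BID, BAD and PMAIP1 (NOXA) are BH3-only proteins, which either block the protective members or activate the pore formers. Interleukin-15 is known as a survival cytokine of memory CD8+ T cells, and BCL2 is among the genes it is known to sustain in them.

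The arrays detected 11263 to 14132 probes each, where a probe counted as detected if the detection p deposited with it, which sets its signal against that of negative control probes, was under 0.05. RNA below a set quality score was left out by the submitters. Of 12 markers of CD8+ TEM, 10 were detected on all 23 arrays, among them CD3D, CD3G, CD8A, PRF1 and GZMB, while CD8B was detected on at most 9 arrays and CD3E on 1. Their summed linear level ranged from 23764 to 29592 before and from 24056 to 26979 after anti-IL-15, and from 26149 to 34500 before and from 21354 to 28354 after the control antibody. Of the 11 tested, 0 passed with anti-IL-15 and 5 fell with the control antibody (CCL5, CD8A, PRF1, CD2 and NKG7), with changes of -1.46 to -0.77 on the log2 scale and limma adjusted p of 0.0104 to 0.0432. Over all probes 0.26% passed with anti-IL-15 and 1.26% fell with the control antibody. Without control animal 1 or 2 no probe passed in the control arm. Before treatment these 5 markers were lower in the anti-IL-15 arm, with differences of -1.21 to -0.49, none of which passed. Their part in the control changes below was not tested. The helper T cell marker CD4 was detected on no array. The naive and central memory markers were mixed, with CCR7 and CD28 detected on at most 3 and 2 arrays but IL7R on 23, CD27 on 21 and LEF1 on 17. The number of sorted cells had a median of 296500 before and 101500 after treatment in the control arm, and of 259000 and 43500 in the anti-IL-15 arm. In sorted bulk RNA, fewer cells that express a gene and less RNA of it per cell cannot be told apart. Markers of other cells were mixed, and none passed in either arm. NCR1 (NK cells), MPO (neutrophils), S100A12 (monocytes), PF4 and ITGA2B (platelets) were detected on no array, but KLRF1 and FCGR3A (NK cells), CD14 (monocytes) and the hemoglobin genes HBB and HBA1 on all 23, FCGR3B (neutrophils) on 22, CD79A and CD79B (B cells) on 20 and 17 and PPBP (platelets) on 18. The neutrophil markers CSF3R and CXCR2 were detected on at most 1 and 4 arrays. Which macaque transcript the FCGR3B probe reads was not tested. The array was designed on human transcripts, and whether a dim probe is dim because of a mismatch to the macaque transcript was not tested.

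The array read some members well and others hardly at all. A probe was tested if it was detected on at least 5 arrays, which 12 of the 24 probes were, and these came from 7 genes. They were 4 probes of BCL2, 2 each of BCL2L1 and BID, and 1 each of MCL1, BCL2A1, BAX and BAK1. The remaining 12 probes were detected on at most 4 arrays each, and 5 of them on none. No probe of BCL2L11, BAD or PMAIP1 was tested, so of the BH3-only members BID alone could be followed. Only probes with a signal in some group could enter the test, so the 12 tested probes do not stand for the whole family. Levels below are log2 intensities after background correction and quantile normalisation, in which the lowest detected signal of an array lay between 4.82 and 5.04, and changes are after minus before treatment in the same animal.

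BCL2, the founding survival gene of the family, was lower after anti-IL-15 on its 2 brighter probes. The brightest, ILMN_2246956, is annotated to the alpha transcript of BCL2. Before anti-IL-15 its deposited intensity was 236, 276, 214, 266 and 225 in animals 1, 2, 4, 5 and 6. After treatment it was 100, 115, 104, 109, 118 and 100 in animals 1 to 6, close to the array medians of 92 to 104. Every array after anti-IL-15 was below every array before it. All 5 earlier arrays detected the probe and 3 of the 6 later ones did, and the undetected arrays were those of animals 1, 3 and 6. On the log2 scale the level was 7.40 ± 0.17 (SD, n = 5) before and 5.10 ± 0.41 (SD, n = 6) after.

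In the control arm the intensity of the same BCL2 probe ran from 187 to 547 before treatment (median 318.5) and from 125 to 277 after it (median 182), and it was detected on all 12 arrays. The log2 level was 7.51 ± 0.67 before and 6.82 ± 0.81 after (SD, n = 6 each), and the times overlapped. The order of the 4 groups was thus control before, anti-IL-15 before, control after and anti-IL-15 after. The first 3 overlapped one another, and the last lay below all of them, its highest value being 5.59 against a lowest control value of 5.92.

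**Figure D1:**
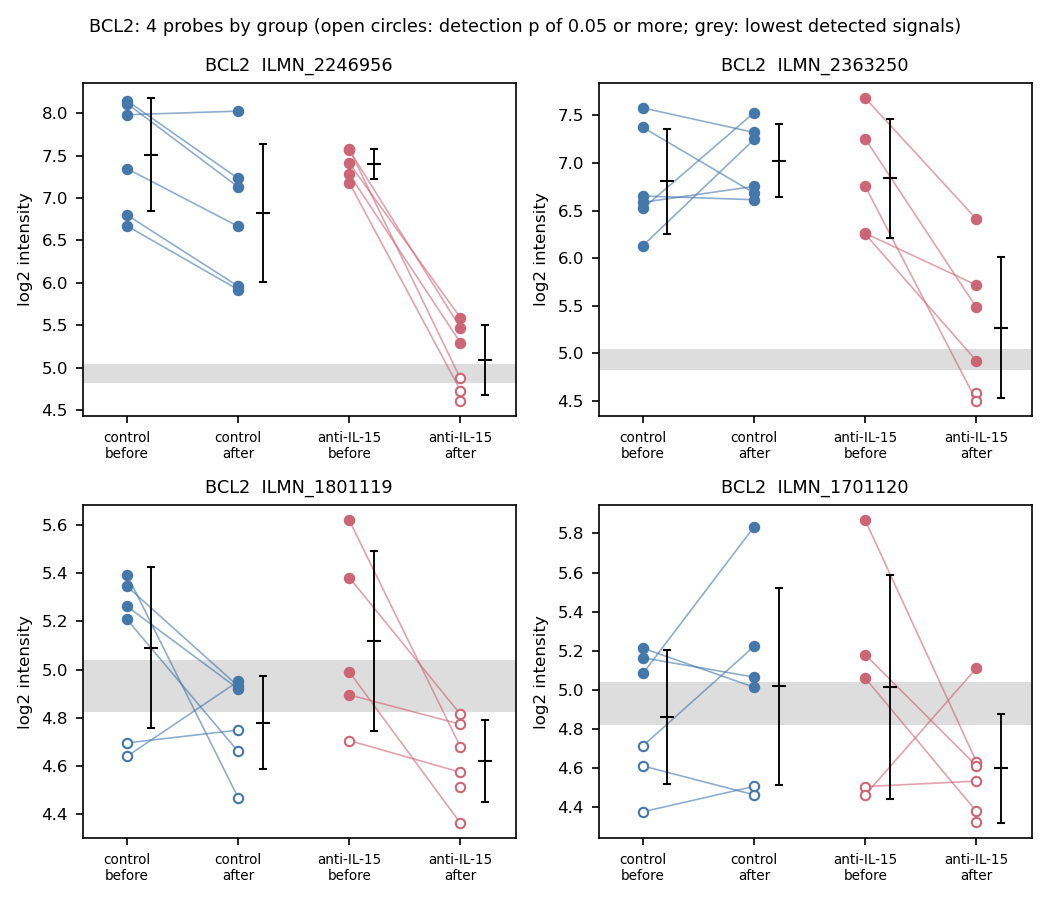
Log2 intensity (vertical axis) of each BCL2 probe in the 4 groups, with 1 point per array, lines joining the arrays of 1 animal and black bars giving the mean ± SD (n = 6, 6, 5 and 6). Open circles are arrays on which the probe was not detected, and the grey band is the range of the arrays' lowest detected signals, 4.82 to 5.04; on ILMN_2246956 all 6 arrays after anti-IL-15 lie below the other 17.

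The change of the brightest BCL2 probe was -2.45, -2.09, -1.98, -1.82 and -2.70 in anti-IL-15 animals 1, 2, 4, 5 and 6. In a limma fit to the 23 arrays that kept each animal as a block (animal 3 of this arm therefore adding nothing to the change), the mean change was -2.21 (SE 0.22, 95% interval -2.66 to -1.76), a 4.62-fold fall with a Benjamini-Hochberg adjusted p of 3.6e-05 over 15744 probes. The fold is uncertain, since only 3 of the 5 paired animals (2, 4 and 5) had a detected signal after treatment. It had the smallest p of all probes in that comparison. With the control antibody the changes were -0.75, -0.68, -0.84, -0.98, 0.04 and -0.92 in animals 1 to 6, with a mean of -0.69 (SE 0.20, 95% interval -1.10 to -0.28, limma adjusted p = 0.0636). So 5 of 6 control animals had lower values too. This control change passed with 75th percentile scaling (-0.85, adjusted p = 0.0232), without a variance trend (adjusted p = 0.0486) and with the 28S ribosomal RNA covariate described below (adjusted p = 0.0234).

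The size of the BCL2 change in the anti-IL-15 arm depended on how background was treated. Without background correction it was -1.08, in the authors' deposited log2 table it was -1.11 and with a larger background offset of 50 it was -1.52. Leaving out the filter for detection, changing the normalisation or the block, and leaving out any 1 animal were also tried. In the fit with an animal block, leaving out a control animal cannot move the anti-IL-15 change, only its SE and adjusted p. The call held under each of the 22 alternatives in which the probe was tested, with limma adjusted p from 4.2e-06 to 0.0467. The largest of these came with the log2 number of sorted cells as a covariate, where the change was -2.08. Cell numbers fell in all 5 paired animals of this arm, with log2 ratios of -2.71 to -1.25, and their part in the result was not otherwise tested.

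The next BCL2 probe, ILMN_2363250, is annotated to the beta transcript, which names the transcript it was designed on and does not show that it misses the other. Its intensity before anti-IL-15 was 159, 294, 146, 195 and 195 in animals 1, 2, 4, 5 and 6, and after treatment 123, 143, 103, 101, 94 and 113 in animals 1 to 6. Detection held on all 5 earlier arrays and on 4 of the 6 later ones. In the control arm it ran from 166 to 301 before (median 214.5) and from 161 to 229 after (median 201.5). The arrays after anti-IL-15 were all below those after the control antibody. They were also below those before anti-IL-15 in deposited intensity, but overlapped with them on the normalised log2 scale, where the highest later level was 6.41 and the lowest earlier one 6.25.

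The changes of this BCL2 probe were -0.54, -1.27, -1.33, -2.26 and -1.77 in the anti-IL-15 animals, a mean of -1.44 (SE 0.28, 95% interval -2.01 to -0.86), or a 2.70-fold fall with a limma adjusted p of 0.0345. In the control animals they were 1.12, -0.26, -0.04, -0.69, 1.01 and 0.17, a mean of 0.22 (SE 0.25, limma adjusted p = 0.713), with 3 animals higher and 3 lower. The call in the anti-IL-15 arm was lost without anti-IL-15 animal 2 (-1.48), 4 (-1.46), 5 (-1.23) or 6 (-1.35), with adjusted p of 0.0541 to 0.128. It was also lost with no animal block (-1.57, adjusted p = 0.0778), with sorted cell number as a covariate (-1.41, adjusted p = 0.812) and without background correction (-0.67, adjusted p = 0.0579).

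The 2 dim BCL2 probes stayed near the floor in every group. ILMN_1801119 gave a signal above background on 4 of the 5 arrays before anti-IL-15 and on 0 of the 6 after, and on 4 and 3 of 6 in the control arm. Its change with anti-IL-15 was -0.48 (SE 0.18), from -0.94 to -0.12 in the 5 paired animals. The change did not pass (limma adjusted p = 0.246). Between the group means the fall was at least 1.13-fold. This bound takes the lowest signal detected on each later array, where higher, in place of the probe's own. It includes the undetected earlier array of animal 1 and the unpaired animal 3. It leaves out the spread between animals, so a smaller fall is not excluded. ILMN_1701120 was detected on 3 of 5 and 1 of 6 arrays in the anti-IL-15 arm and on 3 and 4 of 6 in the control arm, and its changes were -0.36 (SE 0.21) and 0.16 (SE 0.19), neither of which passed. The mean change of all 4 BCL2 probes was below 0 in the anti-IL-15 arm, and in the control arm it was below 0 on the probes annotated to the alpha transcript and above 0 on those annotated to the beta transcript, none of which passed.

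BCL2L1, the other long-studied survival gene, was read by a bright and a dim probe whose changes with anti-IL-15 had opposite signs. On the bright probe, ILMN_1654118, the intensity before anti-IL-15 was 1698, 1134, 875, 1501 and 925 in animals 1, 2, 4, 5 and 6, and after treatment 682, 392, 765, 421, 694 and 637 in animals 1 to 6. It was detected on every array, and every array after treatment was below every array before. In the control arm it ran from 1092 to 2128 before (median 1952) and from 642 to 2222 after (median 941.5), and the times overlapped. The change was -1.07 with anti-IL-15 (SE 0.21, 95% interval -1.51 to -0.63), a 2.10-fold fall in 5 of 5 animals with a limma adjusted p of 0.0345. With the control antibody it was -0.56 (SE 0.19, limma adjusted p = 0.113), below 0 in 5 of 6 animals and lowest in animal 2, at -1.53.

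The BCL2L1 call was less stable than that on the brightest BCL2 probe, holding under 10 of 23 alternatives. Among these, leaving out a control animal could not move the change itself, which stayed at -1.07. The call was lost without anti-IL-15 animal 1, 2, 4 or 5 and without control animal 5, with limma adjusted p of 0.0562 to 0.164. It was also lost with no animal block (-1.04, adjusted p = 0.114). With the log2 number of sorted cells as a covariate the change was -0.33 (limma adjusted p = 0.962). The dim BCL2L1 probe, ILMN_1742410, is annotated to the same transcript, and its changes with anti-IL-15 were -0.08, 0.63, -0.50, 1.96 and 0.31, a mean of 0.46 (SE 0.30, limma adjusted p = 0.529). Its intensity after anti-IL-15 was 244 in animal 5 and 92 to 127 in the other animals.

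**Figure D2:**
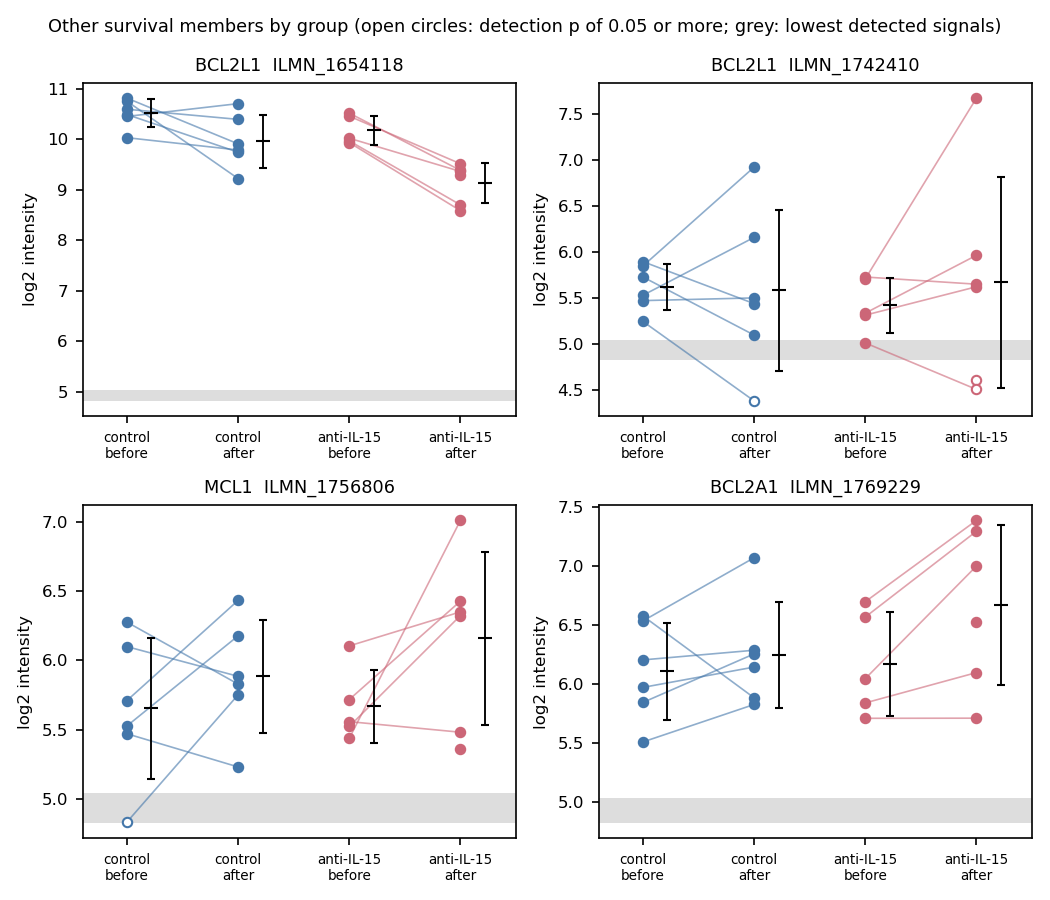
Log2 intensity (vertical axis) of the tested probes of the survival members BCL2L1, MCL1 and BCL2A1 in the 4 groups, drawn as for BCL2 with 1 point per array, lines within animals, mean ± SD and open circles for arrays without detection. The bright BCL2L1 probe averages 10.18 before and 9.14 after anti-IL-15, while MCL1 and BCL2A1 average 5.67 and 6.17 before and 6.16 and 6.67 after.

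MCL1, a survival member with a short-lived protein, and BCL2A1, an inducible one, had higher means after anti-IL-15 without passing the test. The tested MCL1 probe, ILMN_1756806, had intensities of 126, 134, 119, 122 and 131 before anti-IL-15 and of 147, 144, 124, 114, 183 and 145 after it, so the times overlapped. Its change was 0.65 (SE 0.25, 95% interval 0.12 to 1.18, limma adjusted p = 0.271), above 0 in 4 of 5 animals, against 0.23 (SE 0.23) in the control arm. A further MCL1 probe, ILMN_1803988, was detected on no array. BCL2A1, on ILMN_1769229, had intensities of 148, 139, 124, 191 and 151 before and of 190, 131, 183, 121, 213 and 208 after anti-IL-15. Its change was 0.53 (SE 0.22, 95% interval 0.06 to 0.99, limma adjusted p = 0.317), from 0.00 in animal 4 to 0.95 in animal 1, against 0.14 (SE 0.20) in the control arm.

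The pore formers BAX and BAK1 did not pass in either arm. The bright BAX probe, ILMN_2321064, was detected on every array, with intensities of 756, 479, 642, 672 and 545 before anti-IL-15 and of 1295, 557, 638, 547, 490 and 570 after it. Animal 1 after treatment stood above the rest of its group, and the change was 0.26 (SE 0.22, 95% interval -0.20 to 0.72, limma adjusted p = 0.644) with values of -0.38 to 1.12. In the control arm it was -0.30 (SE 0.20, limma adjusted p = 0.464), below 0 in 5 of 6 animals. BAK1, on ILMN_1805990, was also detected on every array and ran from 225 to 269 before and from 184 to 391 after anti-IL-15. Its changes were -0.11 (SE 0.23, 95% interval -0.58 to 0.37) in the anti-IL-15 arm and 0.24 (SE 0.21, 95% interval -0.19 to 0.68) with the control antibody. With sorted cell number as a covariate the anti-IL-15 changes were -0.099 for BAX and 0.23 for BAK1, so the direction of neither was settled. Changes of BAX or BAK1 as large as the fall of BCL2 lie outside these intervals.

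Of the BH3-only members, BID was near the floor. Its brighter probe, ILMN_2259495, had detections on 6 of 6 control arrays at the earlier time and on 2 of 6 at the later one, with intensities of 116 to 151 and 91 to 116, and on 3 of 5 before and 0 of 6 after anti-IL-15, with intensities of 102 to 122 and 93 to 103. Between its group means the probe was at least 1.06-fold lower after anti-IL-15, a bound that leaves out the spread between animals. Its change with anti-IL-15 was -0.36 (SE 0.21, limma adjusted p = 0.484), from -0.92 to 0.07, so a fall was not settled. With the control antibody its change was -0.56 (SE 0.19, limma adjusted p = 0.116), below 0 in 5 of 6 animals. Detection of ILMN_2259495 was rarer at the later time in both arms, without a call. A dimmer BID probe, ILMN_2372413, was detected on 2 of 5 and 3 of 6 arrays in the anti-IL-15 arm and on 1 of 6 at each time in the control arm, with changes of 0.30 (SE 0.22) and -0.03 (SE 0.20), and ILMN_1763386 on none.

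**Figure D3:**
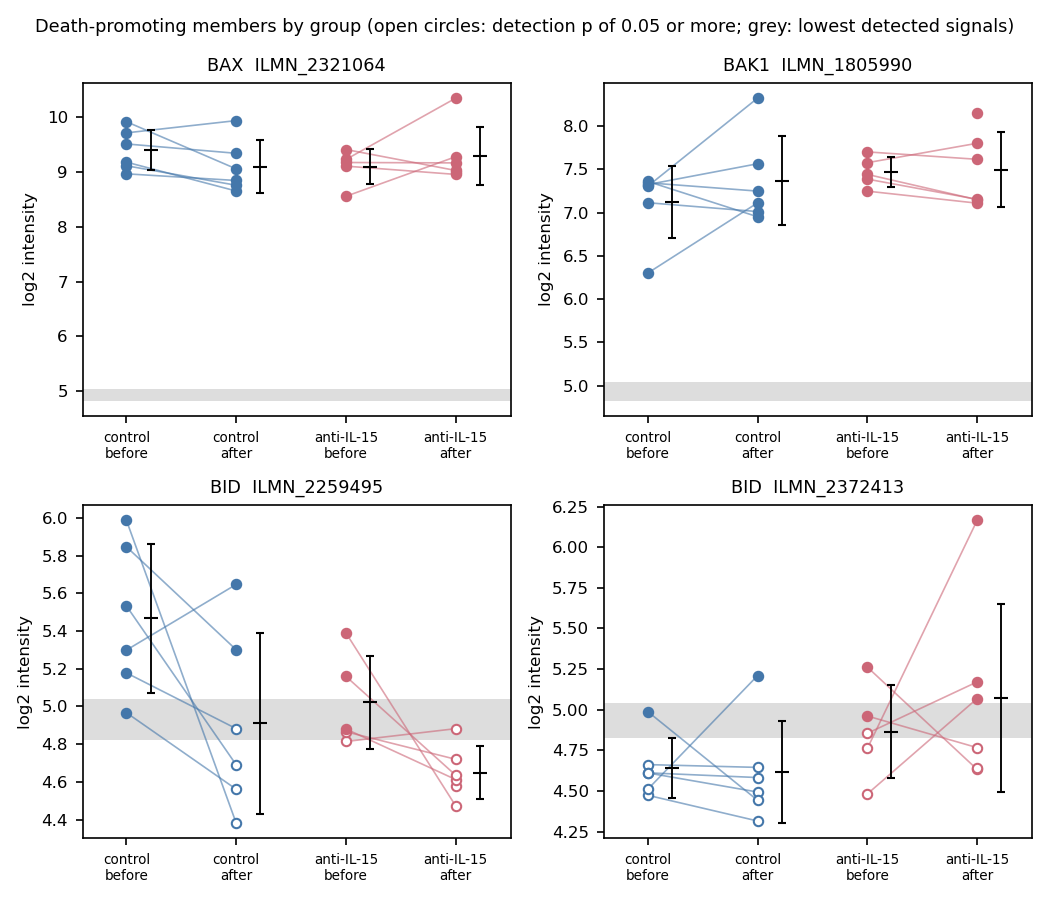
Log2 intensity (vertical axis) of the tested probes of BAX, BAK1 and BID in the 4 groups, with 1 point per array, lines within animals, mean ± SD and open circles for arrays without detection. BAX and BAK1 lie above the grey band of lowest detected signals (4.82 to 5.04) on all 23 arrays, whereas the BID probes straddle it.

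The 12 untested probes had intensities of 80 to 130 on all arrays and gave 17 detections of 276 possible. BCL2L11, whose product BIM binds all protective members, had 3 probes, detected on 3, 2 and 0 arrays. BAD had 3 probes, detected on 2, 1 and 0 arrays, all of them before anti-IL-15. PMAIP1, whose product NOXA binds MCL1, had 2 probes, detected on 4 and 0 arrays, 2 of them before anti-IL-15 and 2 after the control antibody. With so few detections no change of the 3 genes can be given from these arrays.

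Over the 12 tested probes, 3 fell and 0 rose after anti-IL-15, at a limma adjusted p under 0.05, where 0.26% of all 15744 probes were called, 0.165% higher and 0.0953% lower. The count was 1, the brightest BCL2 probe, without the animal block, without background correction, and without anti-IL-15 animal 2, 4 or 5. Levels before and after anti-IL-15 did not overlap on 2 of the 12, the brightest probes of BCL2 and BCL2L1, against 1.14% of all probes. An unadjusted limma p under 0.05 was found with anti-IL-15 on 6 of the 12, in both directions, against 13.1% of all probes. In the control arm 0 of 12 passed against 2.15% of all probes (0.889% higher and 1.26% lower), 0 of 12 had levels that did not overlap between the times against 0.788%, and 3 of the 12 had an unadjusted p under 0.05 against 18.6% of all probes. The median change of the 12 probes was -0.23 in the anti-IL-15 arm and -0.03 in the control arm, against -0.02 for all probes in each. With anti-IL-15, 4 of the 12 were lower in every paired animal, 3 of them BCL2 probes, against 6.02% of all probes, and 1, BCL2A1, was higher in every one against 4.79%. In animal 4 that BCL2A1 change was only 0.001, and its deposited intensity was 124 before and 121 after. In animal 2 the deposited intensity was also lower after treatment, at 139 before and 131 after, while the normalised change was 0.26. None of the 12 was lower or higher in all 6 control animals, against 5.21% and 5.37%.

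**Figure D4:**
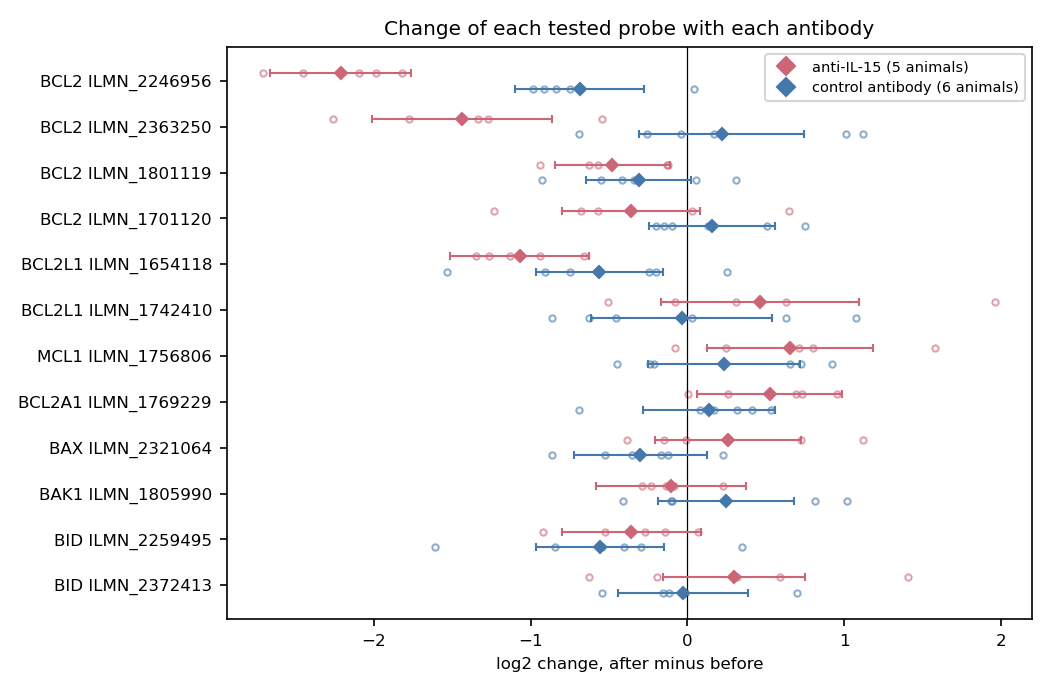
Log2 change (horizontal axis, after minus before) of each tested probe in the anti-IL-15 arm (5 animals) and in the control arm (6 animals), where diamonds and bars give the limma estimate with its 95% interval and open circles the animals. The brightest BCL2 probe reads -2.21 and -0.69, and its animals' values do not overlap between the arms.

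Whether the changes differed between the arms was tested by the interaction of the same fit, and 0 of 12 family probes passed against 0.00635% of all probes, while 2 had an unadjusted p under 0.05 against 8.96% of all probes. For the brightest BCL2 probe the difference of the changes was -1.52 (SE 0.29, 95% interval -2.13 to -0.91, limma adjusted p = 0.134), the fifth smallest p of all probes. The changes of the arms did not overlap on this probe, which held for 0.991% of all probes. For ILMN_2363250 of BCL2 the difference was -1.65 (SE 0.37, 95% interval -2.43 to -0.87, limma adjusted p = 0.317). The difference for the bright BCL2L1 probe was -0.51 (SE 0.29, limma adjusted p = 0.633), for MCL1 0.42 (SE 0.34), for BCL2A1 0.39 (SE 0.30), for BAX 0.56 (SE 0.30) and for BAK1 -0.35 (SE 0.31). With the signal of 28S ribosomal RNA added as a covariate, an alternative chosen after seeing the data, the brightest BCL2 probe passed (-1.55, limma adjusted p = 0.0359). That was the only 1 of 22 alternatives in which its difference passed. The differences ranged from -1.62 to -0.66 over them, with limma adjusted p up to 0.572.

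The arms were also compared at each time, with different animals on each side. After treatment the brightest BCL2 probe was 1.73 lower in the anti-IL-15 arm on the log2 scale (difference -1.73, SE 0.33, limma adjusted p = 0.0612) and ILMN_2363250 was 1.76 lower (difference -1.76, SE 0.31, limma adjusted p = 0.0597). On both probes the arms did not overlap, which held for 0.483% of all probes, and 0 of 12 family probes passed against 0.00635% of all probes. Both BCL2 probes passed without anti-IL-15 animal 5 or control animal 3, and ILMN_2363250 also without anti-IL-15 animal 2. Before treatment the same differences were -0.11 (SE 0.29, 95% interval -0.71 to 0.50) and 0.03 (SE 0.31, 95% interval -0.63 to 0.70), and 0 of 12 passed against 0% of all probes, while 0 of 12 had arms that did not overlap against 0.838%. The bright BCL2L1 probe differed by -0.82 after (SE 0.25, limma adjusted p = 0.388) and by -0.34 before treatment (SE 0.18, limma adjusted p = 0.511). The ILMN_2259495 probe of BID differed by -0.45 before treatment (SE 0.20, limma adjusted p = 0.444).

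**Figure D5:**
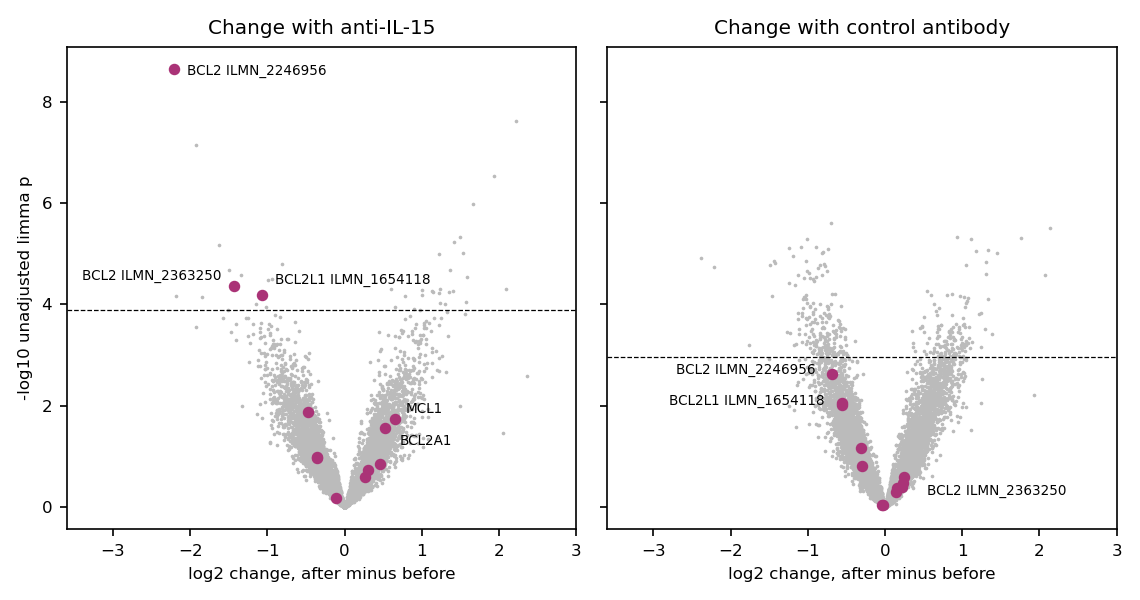
Log2 change (horizontal axis) against -log10 of the unadjusted limma p (vertical axis) for 15744 probes in each arm, with the 12 family probes in purple and a dashed line at the largest p that passed an adjusted p of 0.05. With anti-IL-15, 2 BCL2 probes and 1 BCL2L1 probe lie above the line, and with the control antibody none of the family does.

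Genes around the family were taken as lists, with 1 probe per gene, the brightest. Of 16 further relatives such as BBC3 (PUMA), BIK and BCL2L12, 10 were tested and 0 passed in either arm, with a median change of 0.08 in each. The relative with the smallest p for the difference of changes was BNIP1, a membrane trafficking protein with a BH3 motif, at 0.62 (SE 0.22, limma adjusted p = 0.426), with changes of 0.25 with anti-IL-15 and -0.37 in the control arm. BNIP3L, a mitophagy receptor, had a difference of -0.34, BCLAF1 of -0.35 and BCL2L2 (BCL-W), a survival member, of -0.37, none of which passed. Of 13 genes that act at or after the mitochondrial breach, such as CYCS (cytochrome c), APAF1 and CASP9, 9 were tested and 0 passed, with medians of 0.09 in the anti-IL-15 arm and 0.01 in the control arm. HTRA2, a protease released from mitochondria, had a difference of changes of 0.63 (SE 0.30, limma adjusted p = 0.558). The differences were 0.34 for CASP9, the initiator caspase of the pathway, 0.33 for the outer membrane channel VDAC3 and 0.81 for the nuclease ENDOG, without a call.

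Of 21 genes that regulate the family, 17 were tested, and 13 of these had changes below 0 in the anti-IL-15 arm and 12 in the control arm, with medians of -0.27 and -0.28. None passed with anti-IL-15, against 0.26% of all probes, and 1 fell with the control antibody, against 1.26%. That gene was YWHAZ, a 14-3-3 protein of the kind that holds phosphorylated BAD in the cytosol, with a level of 10.20 ± 0.54 before and 9.15 ± 0.57 after (SD, n = 6 each), and it was lower in 6 of 6 animals. Its change was -1.05 (SE 0.20, limma adjusted p = 0.0128), a call that no probe reached in that arm without control animal 1 or 2. With anti-IL-15 its change was -0.26 (SE 0.22, limma adjusted p = 0.626), and the difference of the changes did not pass (0.79, SE 0.29, limma adjusted p = 0.443). Before treatment YWHAZ was lower in the anti-IL-15 arm (difference -0.82, SE 0.25, limma adjusted p = 0.348). After treatment that difference was -0.02 (SE 0.24), and the part of the starting level was not tested. IL2RB, a receptor chain shared by interleukin-2 and interleukin-15, was named for the antibody's target after its values were seen. Its changes were -0.73 (SE 0.23) with anti-IL-15 and -0.71 (SE 0.21) in the control arm, neither of which passed. IL2RG, a receptor chain of the same list, had changes of -0.37 (SE 0.30) and -0.60 (SE 0.27), neither of which passed.

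The probes whose levels followed the brightest BCL2 probe most closely over the 23 arrays were CCND2 (cyclin D2, which acts in early cell cycle progression), with a Pearson r of 0.850, then PTPN4 (0.845), NR3C1 (0.813), RNF144A (0.809) and AGK (0.805). PTPN4 is a tyrosine phosphatase and NR3C1 the glucocorticoid receptor. These values are descriptions, since the arrays share animals and the 2 arms, and the list was ranked on them. Spearman's rho put PTPN4 (0.883) and AGK (0.861) ahead of CCND2 (0.804).

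The 3 tested naive and central memory markers, LEF1, CD27 and IL7R, had changes of -0.47, -0.31 and -0.13 with anti-IL-15 and of 0.42, 0.06 and 0.40 in the control arm, none of which passed. Of 7 such markers 3 were tested, and their summed linear level ranged from 408 to 904 before and from 429 to 647 after anti-IL-15. Over the control arm it ranged from 178 to 1569 before and from 362 to 870 after. The 28S ribosomal RNA probe changed by 3.66, 4.28, 0.13, 4.10 and -1.91 in anti-IL-15 animals 1, 2, 4, 5 and 6. In control animals 1 to 6 it changed by 4.10, -0.50, -3.62, 3.67, -0.86 and -1.93. With 28S as a covariate the change of the brightest BCL2 probe with anti-IL-15 was -2.24, and the part of 28S was not otherwise tested. HBB changed by -0.73 (SE 0.28) with anti-IL-15, lower in 5 of 5 animals, and by 0.85 (SE 0.26) in the control arm, neither of which passed. The difference of its changes was -1.58 (SE 0.38, limma adjusted p = 0.317). The part of the T cell and hemoglobin markers in the BCL2 result was not tested.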

How the data were processed

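Per the labels' protocols, total RNA was amplified from a fixed input and hybridised by Illumina's direct method, with 1 array per animal and time. The deposited table holds linear probe intensities, neither background-subtracted nor normalised, and the deposited detection p-values. A second deposited table holds log2 values that the authors quantile normalised, as the values show; per the submitters' processing notes limma was used (version not given in the sources used here).

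From these intensities, limma's neqc (limma 3.58.1, R 4.3.3) gave log2 levels after normexp background correction, with the control distribution read from the detection p-values, an added offset of 16 and quantile normalisation. Probes detected (p under 0.05) on at least 5 of 23 arrays and without a value of 0 were tested, 15744 of 47230. Of all probes 30113 had 1 gene symbol in the annotation table, 8 several and 17109 none. Changes and their difference came from 1 limma fit with animal as a block and trended variances, and comparisons between arms from fits over 12 and 11 arrays, with Benjamini-Hochberg adjustment over all tested probes. Arrays were paired by the donor label; arrays of 1 animal deviated from their group means with correlations of -0.02 to 0.47 (median 0.28). The number of arrays limits the precision. Where no array of a group detected a probe, its fold is a bound from the group means, which leaves out the spread between animals. Alternatives covered background, normalisation, the authors' table, filters, the block, the variance trend, cell number, 28S signal and each animal left out; slide was not run, since column names give none.

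Every probe of the 10 members is reported. Of each pathway list, genes past the threshold were named or, failing that, the 4 with the smallest interaction p; for likeness, the 5 highest Pearson r. IL2RB, IL2RG and the cell type markers named with values lie outside that rule and were chosen after their values were seen. The members and lists were chosen with earlier results of these data known. The fit was tested on simulated data. No probe sequence was used here.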

Additional observations from a re-analysis of the deposited data

Results flagged for a closer look

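Among 72 sets of 5 or 6 values (12 probes in 4 groups, and their changes in each arm), 8 held an array or animal that stood apart by Dixon's criterion. About 3.6 would do so by chance if the sets were independent and normally distributed. The changes reuse the arrays of the levels and some probes lay near the floor, so no excess can be read from these counts. The log2 change of the brightest BCL2 probe was 0.042 in control animal 5, against -0.98 to -0.68 in the other 5. BCL2A1 changed by -0.69 in control animal 2, against 0.08 to 0.53 in the others, and its level after the control antibody was 7.07 in animal 5, against 5.83 to 6.29. BAX stood at 10.35 in animal 1 after anti-IL-15, against 8.96 to 9.28. BAK1 stood at 6.30 in control animal 6 before treatment, against 7.11 to 7.36. The dim BID probe ILMN_2372413 stood at 4.99 in control animal 6 before treatment, at 5.21 in control animal 4 after it and at 6.16 in animal 5 after anti-IL-15, against 4.47 to 4.66, 4.32 to 4.65 and 4.63 to 5.17 in the others of those groups.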

How the results depend on the processing

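The fall of the brightest BCL2 probe with anti-IL-15 held under 22 of 22 alternatives, with changes of -2.31 to -1.08. Leaving out a control animal could not move that change, which stayed at -2.21. Detection on all 23 arrays kept no BCL2 probe and gave no value for it. Under the remaining settings ILMN_2363250 of BCL2 missed the threshold with an offset of 50 (-0.94), no background correction (-0.67), the authors' deposited log2 table (-0.68), no filter (-1.44), no replicate block (-1.57), cell number (-1.41) and 28S (-1.49), and ranged from -1.66 to -1.23 with 1 animal left out. BCL2L1 on ILMN_1654118 missed it with no background correction (-0.97), the authors' table (-0.97), no filter (-1.07), no replicate block (-1.04), a random replicate block (-1.04), no variance trend (-1.07), cell number (-0.33) and 28S (-0.91), and ranged from -1.17 to -0.999 with 1 animal left out. The causes were not tested, except that without a filter more probes were tested.

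Of the 12 family probes, 3 passed with anti-IL-15, but 1 with no background correction, the authors' table, no filter, detection on all arrays, no replicate block, cell number or 28S, and 1 to 3 with an animal left out. With the control antibody 0 passed, but 1 with 75th percentile scaling or no trend and 2 with 28S. The difference of changes had 0, but 1 with 28S. After treatment 0 passed, but 1 with an offset of 50 or 75th percentile scaling and 0 to 2 with an animal left out.

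Over all probes, the 41 called with anti-IL-15 became 16 with no filter, 26 with detection on all arrays, 75 with 1 probe per gene, 1 with no replicate block, 13 with a random replicate block, 26 with no trend, 2 with cell number, 13 with 28S and 7 to 101 with an animal left out. The 339 called in the control arm became 585 with 75th percentile scaling, 90 with no filter, 201 with 1 probe per gene, 68 with no replicate block, 198 with no trend, 0 with cell number, 1358 with 28S and 0 to 598 with an animal left out (0 without control animal 1 or 2). The 1 called for the difference became 0 with no filter, no replicate block, a random replicate block or no trend, 4 with cell number, 16 with 28S and 0 to 2 with an animal left out. The 1 called after treatment became 6 with an offset of 50, 3 with no background correction or the authors' table, 4 with 75th percentile scaling, 0 with no filter, 7 with detection on all arrays, 2 with no trend, 5 with cell number, 7 with 28S and 0 to 23 with an animal left out. The 0 before treatment became 0 to 1 with an animal left out.

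Of 926 single-probe values other than the 3 called changes, 25 changed sign, 12 of these with an animal left out, and none of these had passed. With anti-IL-15, BAK1 became 0.026 with no replicate block, 0.011 with a random replicate block, 0.23 with cell number and 0.062 with 28S, and with cell number ILMN_2259495 of BID became 0.11 and BAX -0.099. In the control arm ILMN_1701120 of BCL2 became -0.0086 with cell number, ILMN_1742410 of BCL2L1 0.026 with an offset of 50, 0.013 with no background correction, 0.014 in the authors' table and -0.26 to 0.13 with an animal left out, BCL2A1 -0.030 with 75th percentile scaling, and ILMN_2372413 of BID 0.062 with that scaling and -0.17 to 0.075 with an animal left out. The difference of changes of ILMN_2259495 of BID ranged from -0.0093 to 0.38 with an animal left out. Before treatment the difference between the arms on ILMN_2246956 of BCL2 ranged from -0.27 to 0.020 and on ILMN_2363250 from -0.18 to 0.19 with an animal left out, and the latter became -0.068 with 75th percentile scaling. Signal over background limits the dim probes of BCL2 and BID, which sat near the lowest detected signal, and no change can be given for BCL2L11, BAD and PMAIP1.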
